A study of Mus musculus with 2 samples.

Results

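The BCL2 family genes described here were 10 listed members of the family that sets the threshold for mitochondrial cell death, out of 21911 genes in the deposited table. They were chosen by name, with earlier results of these data known, and each symbol matched 1 Ensembl identifier through the GENCODE M21 annotation. The members were 3 anti-apoptotic genes (Bcl2, Bcl2l1 and Mcl1), 2 pore-forming effectors (Bak1 and Bok) and 5 BH3-only genes (Bad, Bid, Bik, Bmf and Bcl2l11). They were measured in 4T1, a mouse mammary carcinoma cell line that spreads to the lung, after 48 h with PBS or with potassium oxalate, with 1 RNA sequencing library for each condition. The oxalate dose is 20 mM in the treatment protocol and 20 µM in the sample characteristics and in the methods of the paper, and which was used is not settled here. The study sequenced these cells to look for genes that differ with oxalate. Since each condition has a single library, no spread between replicates is known and no test of the treatment was possible.

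Members of this family decide whether the outer mitochondrial membrane stays closed. Anti-apoptotic proteins such as BCL-2, BCL-XL and MCL-1 hold the effectors in check, and BH3-only proteins relieve that hold or activate the effectors directly. Once active, BAK and its relatives open pores that release cytochrome c, which starts the caspase cascade. Much of this control acts on protein stability, cleavage and phosphorylation, which mRNA levels do not show.

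The BH3 segment is a short stretch that most members share, and many pro-apoptotic members bind the anti-apoptotic ones through it. Its coding sequence is shown for all 10 members. The segment was located in each principal coding transcript of GENCODE M21 (GRCm38) by a codon pattern. The pattern was a leucine codon, 3 codons of any kind, a glycine, alanine or serine codon and an aspartate codon. A codon for aspartate, glutamate, glycine, glutamine or serine then ended it. Each of the 10 coding sequences held this pattern 1 time. That count rests on how widely the pattern was written, since only Bad met the serine option and only Bmf the alanine option. The pattern is not particular to the family, since 13.5% of 21575 genes with a principal coding transcript held it. The sequences of 42 bases run 5′ to 3′ on the coding strand, and capitals mark the leucine codon and the codon pair that ends in aspartate.
Bcl2 (chr1:106712572-106712613, minus strand, exon 1): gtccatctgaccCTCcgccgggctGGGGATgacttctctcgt
Bcl2l1 (chr2:152829694-152829735, minus strand, exon 2): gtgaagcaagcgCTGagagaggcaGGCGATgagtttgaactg
Mcl1 (chr3:95659424-95659465, plus strand, exon 1): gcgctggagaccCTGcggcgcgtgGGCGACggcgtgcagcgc
Bak1 (chr17:27022528-27022569, minus strand, exon 4): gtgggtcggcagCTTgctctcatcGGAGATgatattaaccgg
Bok (chr1:93686645-93689173, plus strand, joined from exons 2 and 3): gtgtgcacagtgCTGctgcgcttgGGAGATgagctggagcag
Bad (chr19:6950780-6950821, plus strand, exon 3): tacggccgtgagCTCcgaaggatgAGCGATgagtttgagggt
Bid (chr6:120897286-120897327, minus strand, exon 4): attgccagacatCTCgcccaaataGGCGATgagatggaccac
Bik (chr15:83543072-83543113, plus strand, exon 3): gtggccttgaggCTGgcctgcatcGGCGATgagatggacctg
Bmf (chr2:118545097-118545138, minus strand, exon 4): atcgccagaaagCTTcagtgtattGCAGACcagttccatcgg
Bcl2l11 (chr2:128147138-128147179, plus strand, exon 3): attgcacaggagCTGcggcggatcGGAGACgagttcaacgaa
The codon before the aspartate was a glycine codon in 8 of the 10 members, whereas Bad had AGC and Bmf had GCA. The most alike pairs at the base level were Bak1 with Bik and Bid with Bik, at 64.3% identity over the segment. Of the 5 basic coding transcripts of Bcl2l11, 4 held the pattern, so a gene-level value for Bcl2l11 also covers a form without it. In the other members every basic coding transcript held it.

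Values are FPKM, in which the fragments of a gene are divided by transcript length and library size. Being per length, they allow levels of different genes to be set side by side within a library. In such bulk RNA, fewer cells with a transcript and less of it per cell cannot be told apart. Read spacing of the lowest values put the depth at about 56700000 reads for PBS and 36500000 reads for oxalate. Of the epithelial markers, 9 of 10 had a mean FPKM of at least 1, led by Krt8, and Krt5 was near 0. Their summed level was 1892 FPKM with PBS and 1956 FPKM with oxalate. Of 9 leukocyte markers, 7 were at 0 in both libraries, including Ptprc, whereas Cd68 had 7.79 and 7.11 FPKM and Csf1r 4.93 and 5.18 FPKM with PBS and oxalate, above the level of the member Bcl2. All 5 endothelial markers were below 0.1 FPKM. Of 7 fibroblast markers, Lum and Thy1 were at 0 in both libraries, whereas Col1a1 stood at 143.48 and 144.61 FPKM. The rest were low with PBS and oxalate: Pdgfra 1.88 and 1.93, Col1a2 0.88 and 0.33, Dcn 0.31 and 0.33, and Pdgfrb 0.02 and 0.03 FPKM.

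Among the 10 members, Bak1, Bid and Mcl1 had the highest levels in 4T1 cells. Bak1, the effector that forms pores in the outer mitochondrial membrane, had 228.36 FPKM with PBS and 219.87 FPKM with oxalate, above 96.8% and 96.7% of the genes tested or level with them. Bid, the BH3-only protein that caspase-8 cleaves to link death receptors to mitochondria, had 135.14 and 136.11 FPKM. Mcl1, a short-lived guard that binds BAK and BIM, had 68.08 and 64.67 FPKM. These 3 genes kept this order in both libraries, and the closest pair among them was Bak1 and Bid with oxalate, at a ratio of 1.62.

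The middle of the range held Bok, Bad and Bcl2l1, and their order differed between the libraries. With PBS the order was Bok (30.76 FPKM), Bcl2l1 (19.13 FPKM) and Bad (17.12 FPKM). With oxalate it was Bad (25.58 FPKM), Bok (23.21 FPKM) and Bcl2l1 (21.74 FPKM). The step from Bok to Bcl2l1 with oxalate was 1.07-fold, with a 95% counting interval, by a normal approximation, from 0.975 to 1.17, so those 2 levels could not be separated at this depth. The step from Bad to Bok with oxalate was 1.10-fold, and its interval of 1.001 to 1.21 only just left out 1. Below Bok, Bad and Bcl2l1 came Bcl2l11, which encodes the activator BIM, at 8.6 and 8.08 FPKM. Next was Bcl2, the founding guard of the family, at 3.78 and 3.51 FPKM.

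**Figure D1:**
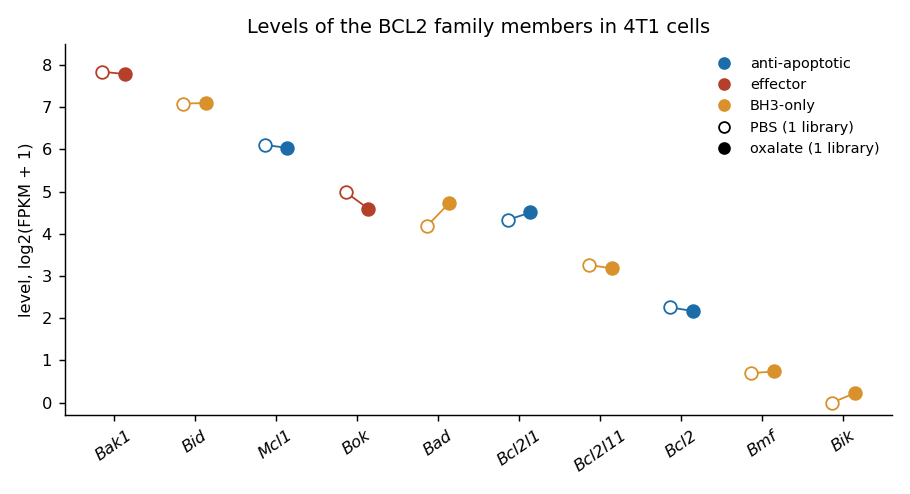
Level of each of the 10 members as log2(FPKM + 1), with PBS as an open point and oxalate as a filled point (1 library each) and color giving the role. Bak1, Bid and Mcl1 lie highest with nearly level lines, the points of Bad and Bok slope in opposite directions, and Bmf and Bik lie near 0.

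Bmf and Bik lay under the filter of a mean FPKM of at least 1, so that 8 of the 10 members entered the comparison of all genes. Bmf, a BH3-only protein tied to the cytoskeleton through dynein light chain, had 0.62 and 0.67 FPKM with PBS and oxalate. Behind them stand about 136 and 94 reads by estimate, and the 95% counting interval of their log2 ratio ran from -0.29 to 0.49, so no difference could be detected at this depth. Bik was listed at 0 with PBS and at 0.17 FPKM with oxalate, about 5 estimated reads. A count of 0 allows up to 3 reads, or 0.0609 FPKM for Bik in the PBS library, and no fold is given.

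The difference between conditions was computed as log2((oxalate + 1)/(PBS + 1)) on FPKM for the 10267 genes whose mean FPKM reached 1, and the added 1 understates the change of low genes. None of the 8 members tested differed by 1.5-fold or more, against 1.99% of all genes tested at 1.5-fold (0.935% higher and 1.05% lower) and 0.653% at 2-fold (0.292% higher and 0.36% lower). Bad lay just under the 1.5-fold threshold, at 1.47-fold, so that count of 0 is not a firm one. At 1.2-fold, 2 of the 8 were past the threshold, Bad higher and Bok lower with oxalate, against 9.94% of all genes tested (4.75% higher and 5.19% lower). In sign, 3 members were higher and 5 lower, where 50.6% of all genes tested were higher and 49% lower. The median over the 8 members was -0.064, beside 0.0031 over all genes tested. The 2 members past 1.2-fold thus belong to different roles and moved in opposite directions, and the median says little about either.

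Bad, the BH3-only protein that binds BCL-2 and BCL-XL and is held by 14-3-3 proteins when phosphorylated, showed the largest difference of the members. It went from 17.12 to 25.58 FPKM, 49.4% more with oxalate and a log2 difference of 0.55. Of all genes tested, 2.18% differed by as much in either direction, but Bad was singled out as the most extreme of the 8 members tested. Among the 3599 genes whose mean lay from 20 to 100 FPKM, the central 95% of log2 differences ran from -0.30 to 0.26, and Bad lay outside it. The estimated reads were 941 with PBS and 904 with oxalate, and the 95% counting interval of the log2 ratio was 0.45 to 0.71. This interval, like the others given for a single gene between conditions, was computed without a pseudocount by the exact (Clopper-Pearson) method. All intervals given here cover counting error only, not the difference between cultures.

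Bad (ENSMUSG00000024959, chr19:6941861-6951899, plus strand) overlaps the start of Gpr137 on the opposite strand (chr19:6938057-6942480). Of the 2558 exon bases of Bad, 524 (20.5%) are also exon bases of Gpr137, and the library protocol does not state that strand was kept. Gpr137, named because of this overlap after its values were seen, went the other way, from 8.9 to 4.92 FPKM, a log2 difference of -0.74. With the estimated reads of both genes summed, 1661 with PBS and 1160 with oxalate, the log2 ratio was 0.12 (95% counting interval 0.0097 to 0.23). With that sum in place of Bad, only Bok of the 8 members would be past 1.2-fold. The sum joins genes that went opposite ways, so it lies nearer to 0 than Bad by construction and is not a corrected value of Bad. Whether reads of the shared exons entered the value of Bad was not tested. Both genes have 8 coding transcripts, as has Bcl2l1. Of the 197 genes tested with that number 14.2% were past 1.2-fold, against 9.94% of all genes tested and 6.16% of 2613 genes with 1 coding transcript. Whether the number of transcripts bears on the value of Bad was not tested.

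Bok, an effector close to BAK in sequence, was the other member past 1.2-fold. It had 30.76 FPKM with PBS and 23.21 FPKM with oxalate, 1.31-fold lower on the scale with the pseudocount, which is a log2 difference of -0.39. A change of this size or larger in either direction was seen in 4.36% of all genes tested, and Bok too lay outside the central 95% of genes at its level. With 1587 and 770 estimated reads, the 95% counting interval of the log2 ratio was -0.53 to -0.28. No other annotated gene overlaps Bok (ENSMUSG00000026278, chr1:93685660-93695764), which has 4 coding transcripts.

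The anti-apoptotic genes differed by less. Bcl2l1, which encodes BCL-XL, had 19.13 FPKM with PBS and 21.74 FPKM with oxalate, a log2 difference of 0.18 that 21.1% of all genes tested matched or exceeded. Its 95% counting interval was 0.078 to 0.29 with the mean length of its 8 coding transcripts and -0.012 to 0.38 with the shortest, so the counting error alone depends on which transcript gave the reads. Mcl1 differed by -0.073 and Bcl2 by -0.084 on the log2 scale. Of all genes tested, 56.8% differed by at least as much as Mcl1 and 51.5% by at least as much as Bcl2.

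The remaining members tested were Bak1, Bid and Bcl2l11. Bak1 differed by -0.054, Bid by 0.010 and Bcl2l11 by -0.080 on the log2 scale. For Bid, with 10438 and 6760 estimated reads, the counting interval of -0.034 to 0.055 bounds the difference of these 2 libraries tightly. For Bcl2l11 the interval was -0.22 to 0.035. The interval of Bak1, -0.086 to -0.023, lay below 0. That of Mcl1 lay below 0 with the mean length of its coding transcripts (-0.13 to -0.024) but held 0 with the shortest (-0.16 to 0.0056). Exons of 3 members besides Bad overlap those of another gene, so reads of the shared bases could belong to either gene. The shares of exon bases were 17.7% in Bid (with Bcl2l13), 18.2% in Bak1 (with Ggnbp1) and 6.09% in Bcl2 (with D630008O14Rik). Bcl2l13 had 37.32 FPKM with PBS and 35.89 FPKM with oxalate. Ggnbp1 had 0.64 and 0.62 FPKM, far below Bak1, and D630008O14Rik was not listed.

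**Figure D2:**
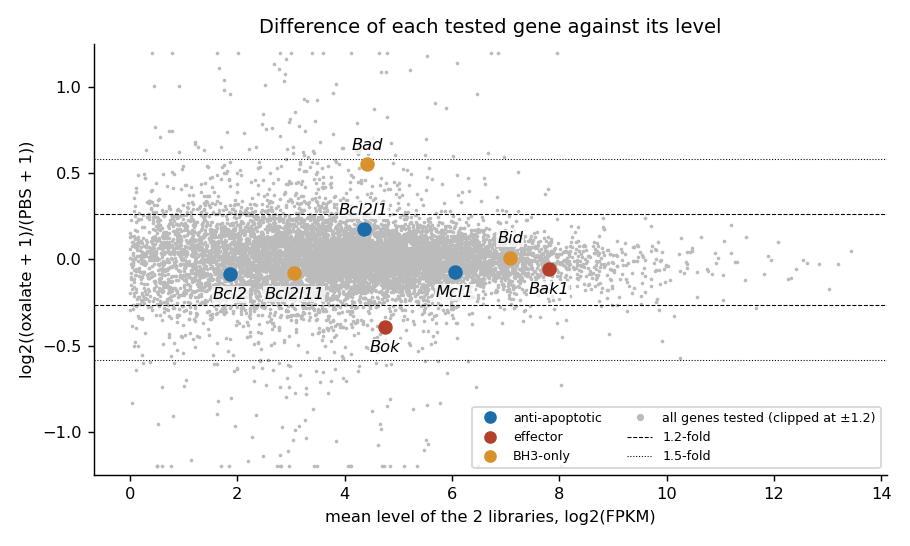
Log2((oxalate + 1)/(PBS + 1)) of every gene tested (grey, clipped at ±1.2) and of the 8 members tested (colored by role) against the mean level of the libraries on a log2 FPKM axis, with dashed lines at 1.2-fold and dotted lines at 1.5-fold. Bad lies above the upper dashed line and Bok below the lower one, and the other 6 members lie between the dashed lines.

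Set against each other, the survival and death sides kept nearly the same proportion. The anti-apoptotic genes summed to 90.99 FPKM with PBS and 89.92 FPKM with oxalate, and the 7 pro-apoptotic genes to 420.6 and 413.69 FPKM. The ratio of anti-apoptotic to pro-apoptotic level was therefore 0.216 with PBS and 0.217 with oxalate, a log2 change of 0.0068 with a 95% counting interval, by a normal approximation, from -0.044 to 0.058. This ratio does not depend on the scaling of the libraries, but Mcl1, Bak1 and Bid dominate it. Without Mcl1 and Bak1, the highest member of each side, the log2 change of the ratio over the members was 0.13.

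Within the pro-apoptotic side the sums of effectors and BH3-only genes differed in opposite directions. Effectors summed to 259.12 FPKM with PBS and 243.08 FPKM with oxalate, and BH3-only genes to 161.48 and 170.61 FPKM. The BH3-only share of the summed level of the 10 members went from 31.6% to 33.9% and the effector share from 50.6% to 48.3%, while the anti-apoptotic share was 17.8% and 17.9%. The BH3-only sum was 9.13 FPKM higher with oxalate, of which Bad gave 8.46 FPKM. Oxalate minus PBS was -16.04 FPKM for the effector sum, made up of -7.55 FPKM for Bok and -8.49 FPKM for Bak1.

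Ratios between single members are given next. The ratio of Bad to Bcl2l1 was 0.895 with PBS and 1.18 with oxalate, and that of Bad to Bok went from 0.557 to 1.10. Bad and Bok were the tested members with the largest rise and the largest fall, so the shift of their ratio follows from that and adds nothing to it. The ratio of Bak1 to Mcl1, an effector and its guard, was 3.35 and 3.40. The ratio of Bcl2l11 to Mcl1 was 0.126 and 0.125. The overlap with Gpr137 applies to the ratios that contain Bad as well. Ratios without Bad also differed, such as Bak1 to Bok, which was 7.42 with PBS and 9.47 with oxalate. The ratio of Mcl1 to Bcl2l1 was 3.56 and 2.97, and that of Bcl2l1 to Bcl2 was 5.06 and 6.19.

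**Figure D3:**
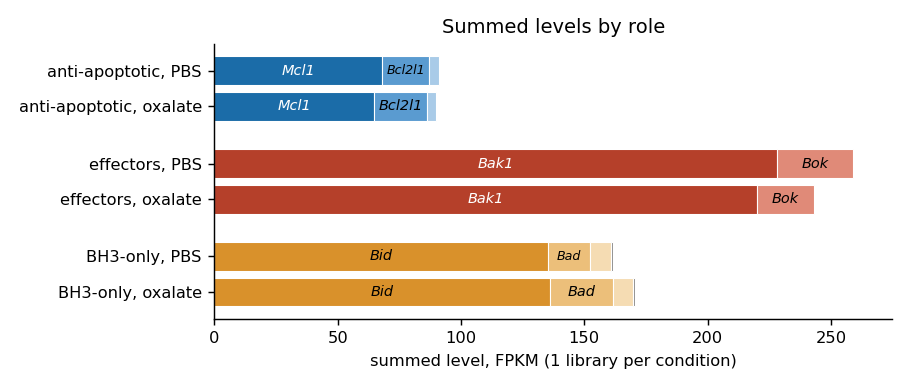
Summed FPKM of the anti-apoptotic, effector and BH3-only members in the PBS and the oxalate library (1 each), with segments for single genes. The anti-apoptotic bars are nearly equal at 90.99 and 89.92 FPKM, the effector bar is shorter with oxalate, in both its Bak1 and its Bok segment, and the BH3-only bar is longer, mostly in its Bad segment.

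Other genes of the family and the pathway were taken as 5 lists of 51 genes in all, 44 of them with a mean FPKM of at least 1. These lists too were chosen with earlier results of these data known. None of the 44 differed by 1.5-fold, and 1 differed by 1.2-fold, against 9.94% of all genes tested. That share is not matched by level. It was 16.6% of genes with a mean from 1 to 5 FPKM, 11.9% from 5 to 20, 5.78% from 20 to 100 and 4.34% from 100 up. Of the 44 genes, 16 were higher and 28 lower with oxalate, where 50.6% of all genes tested were higher and 49% lower. The same shares of all genes tested stand beside the counts of the single lists below. Log2 differences of the 44 genes ran from -0.32 to 0.19, with a median of -0.071. Dividing each library by its FPKM sum left 26 of the 44 lower, where 42.3% of all genes tested were lower on that scale, and the lists were not tested against other genes.

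The other BCL2 family list held 15 genes, of which 8 were tested and 6 were at 0 in both libraries. Bax, the effector that partners BAK, was its highest gene, at 95.8 FPKM (PBS) and 86.74 FPKM (oxalate), above Mcl1 and below Bid in both libraries. The level of Bak1 was 2.38 times that of Bax with PBS and 2.53 times with oxalate. Bcl2l12, a BCL2-like protein, was the gene past 1.2-fold, at 10.32 and 8.05 FPKM with a log2 difference of -0.32. The genes at 0 included the guards Bcl2a1a, Bcl2a1b, Bcl2a1d and Bcl2l10 and the BH3-only gene Hrk. The Bcl2a1 genes are near copies of one another, so a shared read could be assigned to any of them or dropped, and their values are uncertain.

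Downstream of the mitochondria, 6 of the 10 apoptosome and caspase genes were lower and 4 higher, with a median log2 difference of -0.10. Diablo, which encodes the IAP antagonist Smac, had 18.02 FPKM with PBS and 15.57 FPKM with oxalate (log2 difference -0.20), the largest difference of that list. Among the 5 inhibitors of apoptosis, 3 were higher and 2 lower, and Birc5 (survivin) had 76.65 and 77.41 FPKM. Xiap, the direct caspase inhibitor, differed most, by -0.19 from 12.63 to 10.94 FPKM.

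Upstream, the 8 death receptor genes had a median log2 difference of 0.060, with 5 higher and 3 lower. Tnfrsf1a, the TNF receptor, was their highest gene at 61.61 and 64.24 FPKM, and the adaptor Fadd differed most, from 8.69 to 7.56 FPKM. Of 13 partners and regulators, which include the 14-3-3 proteins that hold BAD, 10 were lower and 3 higher, where 49% of all genes tested were lower. Ywhae, one of these 14-3-3 genes, was far above the family itself, at 1315 FPKM (PBS) and 1247 FPKM (oxalate). Dynll1, a dynein light chain that binds BIM, differed most in this list, from 175.94 to 155.15 FPKM (-0.18).

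**Figure D4:**
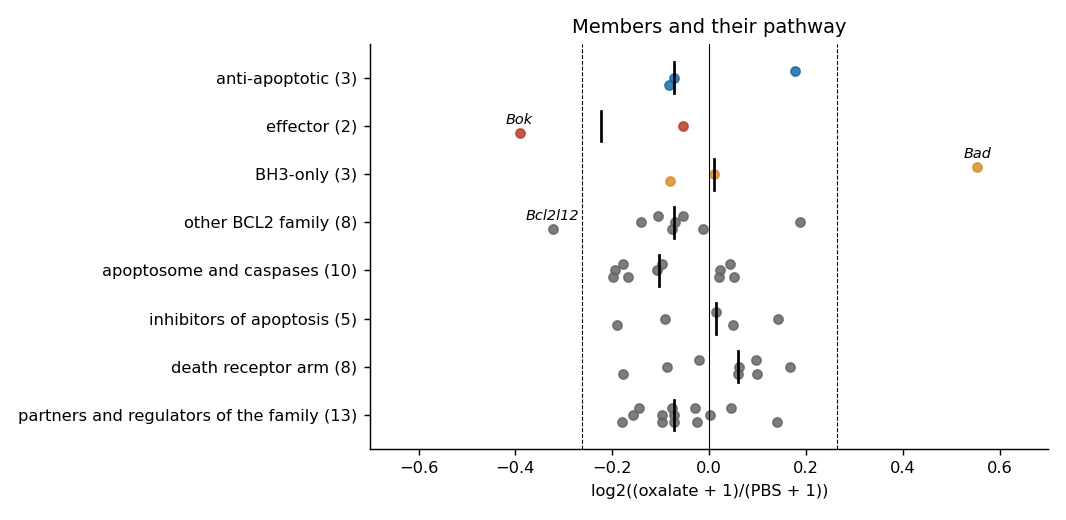
Log2((oxalate + 1)/(PBS + 1)) of the tested members by role and of the 5 pathway lists, 1 point per gene, with the number of genes tested in parentheses, a bar at each median and dashed lines at 1.2-fold. Bad, Bok and Bcl2l12 are the points outside the dashed lines, and the 5 pathway lists span -0.32 to 0.19.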

How the data were processed

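RNA of 4T1 cells was analysed in 2 libraries, 1 per condition. Per the labels, mRNA was captured on oligo(dT), random primers made the cDNA, and an Illumina HiSeq instrument read it. The submitters' processing notes name Bowtie2 2.2.8 and TopHat2 2.1.1. The quantification tool, genome build, annotation and filters are not given in the sources used here. The authors deposited FPKM values rounded to 2 decimals, which were used as deposited. Symbols, coordinates and coding sequences came from GENCODE M21 (GRCm38), which matched 21848 of 21911 identifiers.

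Depth was estimated from the spacing of FPKM times length in kb, 0.0176 per read for PBS and 0.0274 for oxalate, over 81 and 74 single-transcript genes (under 0.7 kb, at most 10 reads). All of these lay within 0.2 of a whole read. Reads of a member used the mean length of its coding transcripts. They are estimates, and no count test was run.

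Every member was named. Of the pathway lists, the highest gene, the gene with the largest difference and any gene past 1.5-fold were named, and Bcl2a1a, Bcl2a1b, Bcl2a1d, Bcl2l10 and Hrk were added after their values were seen. One gene that this rule names is not reported here. Members and lists were chosen with earlier results of these data known. The scripts were tested on simulated data. Tools were pandas 2.3.3, numpy 2.4.6, scipy 1.17.1, Biopython 1.88 and matplotlib 3.10.9 under Python 3.11.15.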

Additional observations from a re-analysis of the deposited data

How the results depend on the processing

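No paired analysis was possible because the conditions compared hold only 1 library apiece, and for that reason no library could be left out. The log2 differences of the 9 members above 0 in both libraries kept their sign in all 36 recalculations, under 2 other pseudocounts (0.1 and 0.001) and 2 rescalings, and 0 of them shifted by more than the counting error. The count of members past 1.5-fold stayed at 0, and that past 1.2-fold at 2, under these settings, over all genes listed and at a mean FPKM of at least 5. Bad stayed just under 1.5-fold, with a log2 difference of 0.579 at a pseudocount of 0.001, and its counting interval reached past that threshold. Summing the estimated reads of Bad and Gpr137, a setting chosen after seeing the data, gave a log2 ratio of 0.12 for both genes together. With that sum in place of Bad, the count past 1.2-fold was 1. The sum is not a corrected value of Bad. The 204 genes past 1.5-fold became 309 with a pseudocount of 0.001. The median of the members became -0.022 over all genes listed, where Bmf and Bik join it. The log2 change of the anti-apoptotic to pro-apoptotic ratio became 0.13 without the highest member of each side, and between -0.038 and 0.025 under the other 2 alternatives. Depth limits Bmf and Bik.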
